A study of Caenorhabditis elegans with 30 samples.

Results

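The comparison described here set the H3K9me3 ChIP-seq libraries of set-32 mutant worms against those of met-2 set-25 double mutant worms, in order to find which regions of the genome kept more H3K9me3 without one histone methyltransferase (HMT) than without the others. It used 6 libraries of the 25 in the deposited table, chosen by mark and strain, and 99742 of 100270 windows of 1 kb (ce6 genome). The alleles were set-32(ok1457) and met-2(n4256);set-25(ok5021). Both strains were whole, synchronized young adult hermaphrodites grown at 19 °C on OP50 bacteria, on gfp RNAi bacteria or on oma-1 RNAi bacteria. H3K9me3 libraries of WT (N2), of the triple mutant, which carries these alleles of all 3 genes, and of hrde-1 (tm-1200) entered the estimate of the spread, and WT and triple mutant levels are given for reference. Each strain and feeding had 1 library, so each feeding counted as 1 sample of its strain (n = 3), and the spread is that between feedings and not between repeated cultures.

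H3K9me3 is a mark of heterochromatin. In *C. elegans* it is concentrated on the arms of the autosomes and at repeats, transposons and targets of germline nuclear RNAi, a pathway in which the Argonaute protein HRDE-1 and small RNAs direct silencing at chromatin. MET-2 and SET-25 are HMTs known for H3K9 methylation across the genome, MET-2 for mono- and dimethylation and SET-25 for trimethylation, while SET-32 is a SET-domain protein known for its role in nuclear RNAi. GRH windows, where H3K9me3 depended on germline nuclear RNAi, and GRTS windows, where transcriptional silencing depended on it, were marked by the authors from an earlier study of the hrde-1 mutant. Whole worms were ground, so a change in the share of germline cells and a change within a cell type cannot be told apart.

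The deposited values were RPKM. Each H3K9me3 library was divided by the median of its H3K9me3(-) windows, the 22219 windows between the 5th and 25th percentile of WT on OP50, and multiplied by the mean of those medians; such values are called scaled RPKM. H3K9me3(+) windows were the top 5 percent in WT on OP50 (5031 windows). The step that 1 read makes in the values gave 3337000 to 5228000 reads for set-32 and 2444000 to 4408000 for met-2 set-25, with a median of 24 to 46.5 reads per window. The column names of the 3 set-32 libraries share a prefix that the 3 met-2 set-25 libraries do not have, so the strain and whatever the prefix stands for cannot be told apart.

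The label of set-32 was checked where its genotyping primers lie. The window at 9519 kb of chromosome I, where the genotyping primers of set-32 lie, was at 1.55, 3.91 and 0.701 scaled RPKM in set-32 on OP50, gfp RNAi and oma-1 RNAi, and at 9.30, 5.98 and 8.62 in met-2 set-25. This window is among the calls below as lower in set-32. The triple mutant, with the same set-32 allele, was at 3.16, 4.0 and 2.86 there. How much of the window the deletion covers was not examined. A search for windows near 0 in every library of the set-32 and triple mutants found 0. A search for windows near 0 in every library of the met-2 set-25 and triple mutants found 1, at 13288 kb of chromosome III, with 0.0 RPKM in all of them and 2.57 RPKM or more in all other libraries. It is among the calls as higher in set-32, and as it was found by its values it checks no label.

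H3K9me3 was higher in set-32 than in met-2 set-25 at far more windows than it was lower. Of the 99742 windows, 1166 were higher in set-32 (1.17%) and 85 were lower (0.0852%), at a Benjamini-Hochberg adjusted p under 0.05 in limma with at least a 2-fold difference. The higher windows had a median log2 difference of 1.20 (median SE 0.29), against 0.05 over all windows. By feeding, their median log2 difference was 0.97 on OP50, 1.31 with gfp RNAi and 1.44 with oma-1 RNAi. All 3 set-32 libraries lay above all 3 met-2 set-25 libraries at 1159 of the 1166 windows, and all 3 lay below at 83 of the 85. The windows were selected on these same libraries, so this separation follows largely from the selection and tests nothing. The share over all windows was not counted. A limit of 1.5-fold in place of 2-fold gave 1826 higher and 248 lower windows, so 660 higher and 163 lower windows fell just outside the limit.

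The number of calls depended on the libraries. Without the oma-1 RNAi feeding 134 windows were higher and 15 lower, without the gfp RNAi feeding 827 and 229, and without the OP50 feeding 3791 and 115. Leaving out single libraries gave 438 higher windows without set-32 on oma-1 RNAi, 612 without set-32 on gfp RNAi, 4311 without set-32 on OP50 and 442 without met-2 set-25 on OP50, and 166 lower windows without set-32 on gfp RNAi and 201 without met-2 set-25 on gfp RNAi. With depth normalization alone the median of all windows moved from 0.05 to -0.09 and 79.4% of the calls were higher in set-32, against 93.2% with the scaling used here.

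At the windows that were higher in set-32, met-2 set-25 was close to the triple mutant in level. The median level of the 1166 windows was 14.8, 16.2 and 21.7 scaled RPKM in set-32 on OP50, gfp RNAi and oma-1 RNAi. In met-2 set-25 it was 7.10, 5.87 and 6.92, and in the triple mutant 6.32, 6.34 and 5.92. WT had 38.6, 12.2 and 23.0, so the WT libraries themselves differed by feeding more than those of the mutants did. The median window kept 37.9% (set-32) and 17.3% (met-2 set-25) of the WT level on OP50, and 92.9% and 30.8% with oma-1 RNAi. With gfp RNAi set-32 stood at 126.4% of WT and met-2 set-25 at 47.9%. These windows were selected on the contrast between the mutants, so their levels describe them and test nothing.

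The H3K9me3(+) windows, which were chosen on a WT library outside the contrast, were higher in set-32 as a group. The ratio of the H3K9me3(+) median to the H3K9me3(-) median was 4.13, 4.52 and 5.72 in set-32 on OP50, gfp RNAi and oma-1 RNAi, and 3.48, 2.13 and 2.85 in met-2 set-25. The means were 4.79 ± 0.829 and 2.82 ± 0.678 (SD, n = 3 each). No met-2 set-25 library reached the lowest set-32 library, and the exact two-sided permutation test gave p = 0.10, the smallest p that 3 against 3 libraries allow. The triple mutant had 2.26, 2.08 and 1.83 and WT 13.4, 3.76 and 6.90, so on gfp RNAi the WT ratio lay below that of set-32.

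GRH windows had a smaller median difference between the mutants than the rest of the H3K9me3(+) windows, while the median of the GRTS windows was close to the rest. The shares of called windows did not follow the medians. Of the 4776 H3K9me3(+) windows outside both lists, 470 were higher in set-32 (9.84%) and none was lower, with a median log2 difference of 0.74 (0.26 on OP50, 1.03 with gfp RNAi, 0.96 with oma-1 RNAi). Of the 166 windows that were GRTS and not GRH, 7 were higher (4.22%) and none was lower. Their median was 0.66 (0.12, 0.95 and 0.81). Of the 190 windows that were GRH and not GRTS, 11 were higher (5.79%) and 4 lower (2.11%). Their median was 0.14 (-0.22, 0.37 and 0.27). The 25 windows on both lists had 2 higher (8%) and none lower, with a median of 0.49. Over all windows 1.17% were higher and 0.0852% lower. The log2 difference of the GRH windows fell short of that of the other H3K9me3(+) windows by 0.48, 0.65 and 0.69 in the 3 feedings. Among windows that are themselves H3K9me3(+), the gap was -0.40 ± 0.07 for the 105 GRH windows and 0.01 ± 0.05 for the 129 GRTS windows (SD over 3 feedings, each the difference of the medians of 2 classes). The GRH gap thus kept its sign in every feeding and was larger than its spread, while the GRTS gap was smaller than its spread. Of the same 105 GRH windows 11 were called higher (10.5%), near the 9.84% of the rest, and of the 129 GRTS windows 7 (5.43%). No test was run on these gaps or shares.

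In level, the GRH windows were low in both strains beside WT on OP50 and oma-1 RNAi. Their median was 9.65, 11.0 and 12.7 scaled RPKM in set-32 and 12.3, 7.97 and 10.8 in met-2 set-25, for OP50, gfp RNAi and oma-1 RNAi, against 50.6, 13.5 and 27.5 in WT and 7.27, 6.81 and 6.33 in the triple mutant. The 2 strains overlapped at GRH windows (mean ratios to the H3K9me3(-) median 2.27 and 2.11, exact permutation p = 0.60, n = 3 each). At GRTS windows set-32 had 18.8, 21.4 and 27.2 and met-2 set-25 16.6, 10.4 and 14.3, with no overlap (mean ratios 4.59 and 2.81, exact permutation p = 0.10, n = 3 each).

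**Figure D1:**
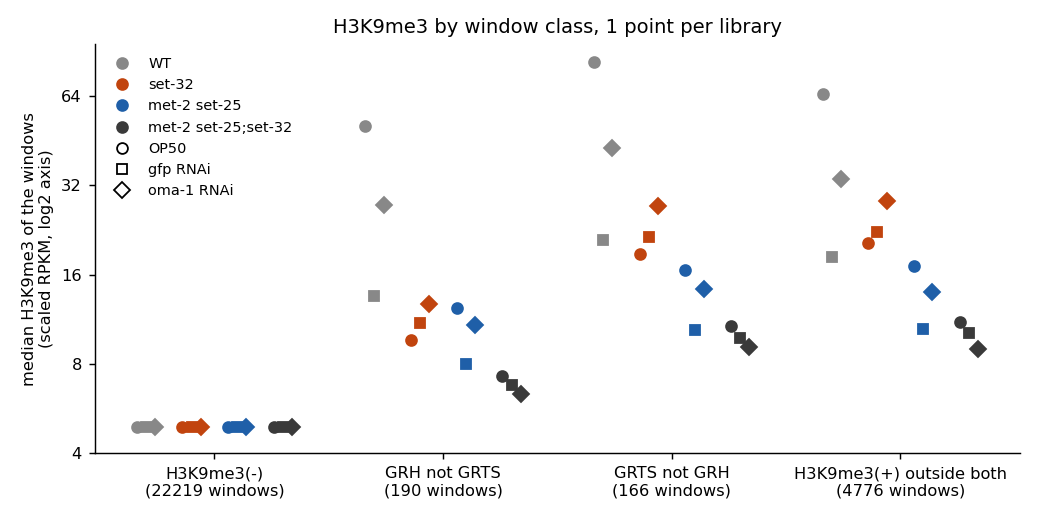
Median H3K9me3 in scaled RPKM (log2 axis) of 4 classes of windows, with 1 point per library, colours for strains and symbols for feedings. At GRH windows the set-32 and met-2 set-25 points overlap; at GRTS windows and at H3K9me3(+) windows outside both lists the 3 set-32 points lie above the 3 met-2 set-25 points. The H3K9me3(-) windows are equal by the scaling.

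The difference was largest at the windows with the most H3K9me3 in WT. When the windows were split into 10 equal classes by the mean of the 3 WT libraries, the highest class (a median WT level of 28.7 scaled RPKM) held 720 of the 1166 higher windows and 9 of the 85 lower ones, and its median log2 difference was 0.58. The next class held 169 higher windows and had a median of 0.21, and in the 8 lower classes the median ran from -0.03 to 0.06. In the highest class set-32 was above met-2 set-25 at 62.6% of windows on OP50, 99.0% with gfp RNAi and 95.6% with oma-1 RNAi. On OP50 the median difference was 0.08 in the lowest class, -0.39 in the fifth and 0.12 in the highest, so that it did not rise from class to class. With gfp RNAi it was -0.12, 0.30 and 0.89 in these classes, and with oma-1 RNAi -0.05, 0.04 and 0.76. Across all windows the median difference was -0.24 on OP50, 0.34 with gfp RNAi and 0.11 with oma-1 RNAi, so the feedings differed by an offset over most of the genome as well as at the marked windows.

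**Figure D2:**
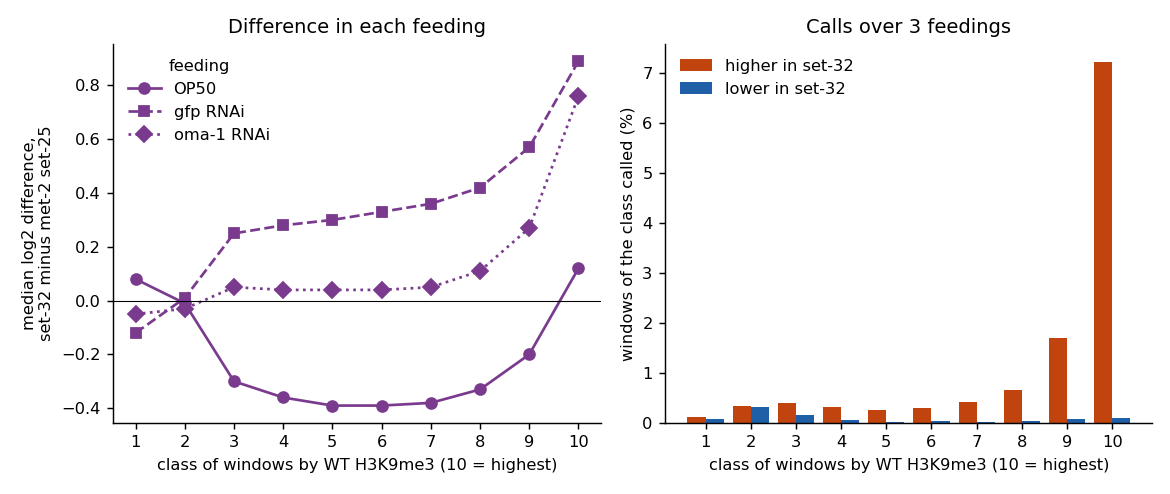
Left, the median log2 difference (set-32 minus met-2 set-25) in 10 classes of windows ordered by WT H3K9me3, in each feeding. Right, the percentage of windows of each class called higher or lower in set-32. The difference is most positive in the class with the most H3K9me3 in WT in each of the 3 feedings, and calls of higher windows are concentrated there. On OP50 the middle classes lie further from 0, on the negative side (-0.39 in the fifth class, 0.12 in the highest).

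The higher windows lay mainly in the outer parts of the autosomes. When each chromosome was cut into 3 equal parts, 501 higher windows were in the left part of the autosomes (1.83% of its windows), 89 in the middle part (0.325%) and 528 in the right part (1.93%). Chromosome I had 326 (2.17%), chromosome III 216 (1.58%), chromosome V 271 (1.30%), chromosome II 143 (0.939%), chromosome IV 162 (0.930%) and chromosome X 48 (0.273%). The right part of chromosome V held 213, the right part of chromosome I 190 and the left part of chromosome III 153, while the right part of chromosome IV held 16. On chromosome X, 43 of the 48 were in the left part and none in the middle.

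Of the 1166 higher windows 490 were H3K9me3(+) (42%, against 5.04% of all windows) and 676 were not. The 676 too were mainly in the outer parts, with 331 in the left part of the autosomes (1.29% of its windows that are not H3K9me3(+)), 65 in the middle (0.239%) and 275 in the right (1.12%). The chromosomes did not hold higher windows in proportion to their H3K9me3(+) windows. Chromosome III had 18.5% of the higher and 8.65% of the H3K9me3(+) windows, and chromosome V 23.2% and 38.9%. Among the H3K9me3(+) windows alone, 10.1% were higher in the left part of the autosomes, 11.5% in the middle and 9.25% in the right, with median log2 differences of 0.73, 0.63 and 0.75. By chromosome the share of H3K9me3(+) windows that were higher ran from 7.0% on II to 13.4% on IV, and their median log2 difference from 0.70 to 0.77. Chromosome X, with few higher windows in all, had 43 of its 410 H3K9me3(+) windows higher (10.5%) with a median of 0.74. The calls were clustered on a finer scale too. Of 1005 bins of 100 kb, 26 held 10 or more higher windows and together 382 of the 1166, with 33 in the bin from 14.6 to 14.7 Mb of chromosome I and 28 in that from 16.7 to 16.8 Mb of chromosome V.

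**Figure D3:**
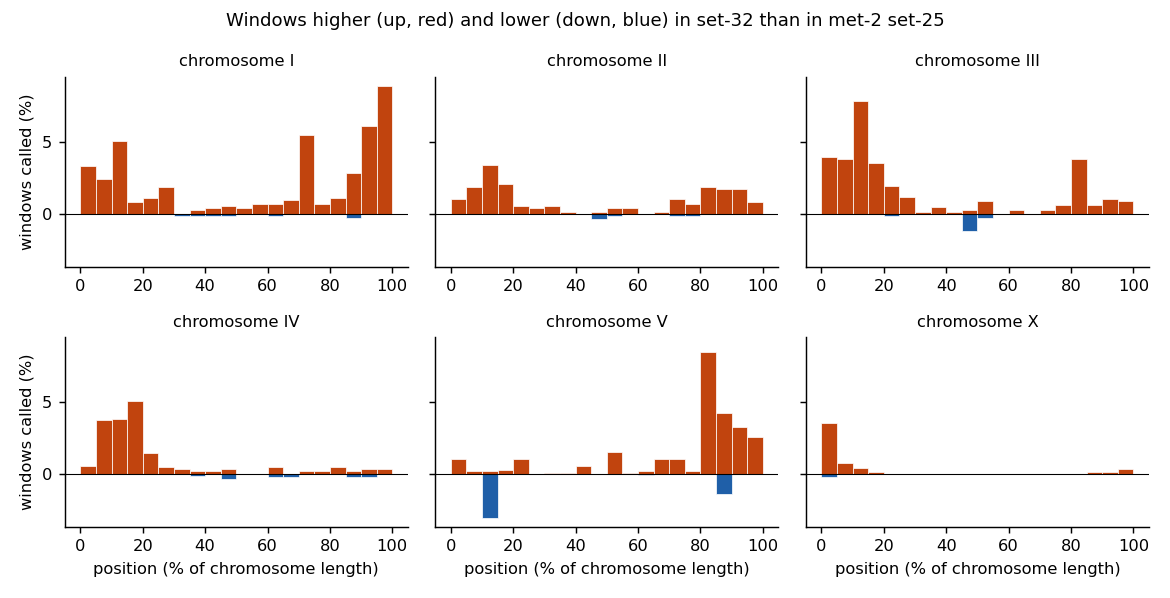
Percentage of 1 kb windows called higher (bars upward) or lower (bars downward) in set-32 than in met-2 set-25, in 20 equal parts of each chromosome, with position as a percentage of chromosome length. Higher windows are frequent towards the ends of chromosomes I and II, on the left of III and IV, on the right of V and at the left end of X. Lower windows stand in a few places on III and V.

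Called windows that lay within 1 kb of each other were joined to regions of at least 3 called windows. This gave 114 regions higher in set-32, which held 579 of the 1166 windows and were 3 to 19 kb long (median 4 kb). Regions were required to have the same sign in every feeding. Of these, 12 were in the middle part of a chromosome, 5 were on X, 5 held a GRH window and 3 a GRTS window. The gene content of the regions was not analysed here. The 15 regions with the largest mean log2 difference (1.49 to 1.80) held 99 windows, of which 60 were H3K9me3(+), and 14 of the 15 lay in an outer part of their chromosome. In all 15 the 3 set-32 libraries lay above the 3 met-2 set-25 libraries, with 12.5 to 28.6 against 3.59 to 9.79 scaled RPKM on OP50, 12.2 to 31.7 against 4.07 to 8.23 with gfp RNAi and 14.9 to 49.0 against 4.06 to 10.2 with oma-1 RNAi. The regions were chosen on this contrast, so this separation describes them and tests nothing. The triple mutant had 3.69 to 9.26 in these regions over all feedings. The calls leaned on the oma-1 RNAi libraries. Refitted without that feeding, 14 of the 20 named regions (these 15 and the 5 lower ones below) had fewer than 3 called windows.

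The region with the largest difference was on chromosome I from 14879 to 14895 kb, in which all 16 windows were called. Its mean level was 28.6, 31.7 and 49.0 scaled RPKM in set-32 (OP50, gfp RNAi, oma-1 RNAi) and 9.76, 8.23 and 9.54 in met-2 set-25. WT had 98.7, 26.0 and 53.7 and the triple mutant 8.51, 8.52 and 8.38. Here set-32 was above WT with gfp RNAi and below it in the other feedings, and met-2 set-25 was near the triple mutant in every feeding. The mean log2 difference was 1.80 (mean SE of a window 0.35) and the largest adjusted p among its windows was 0.0056 in limma.

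**Figure D4:**
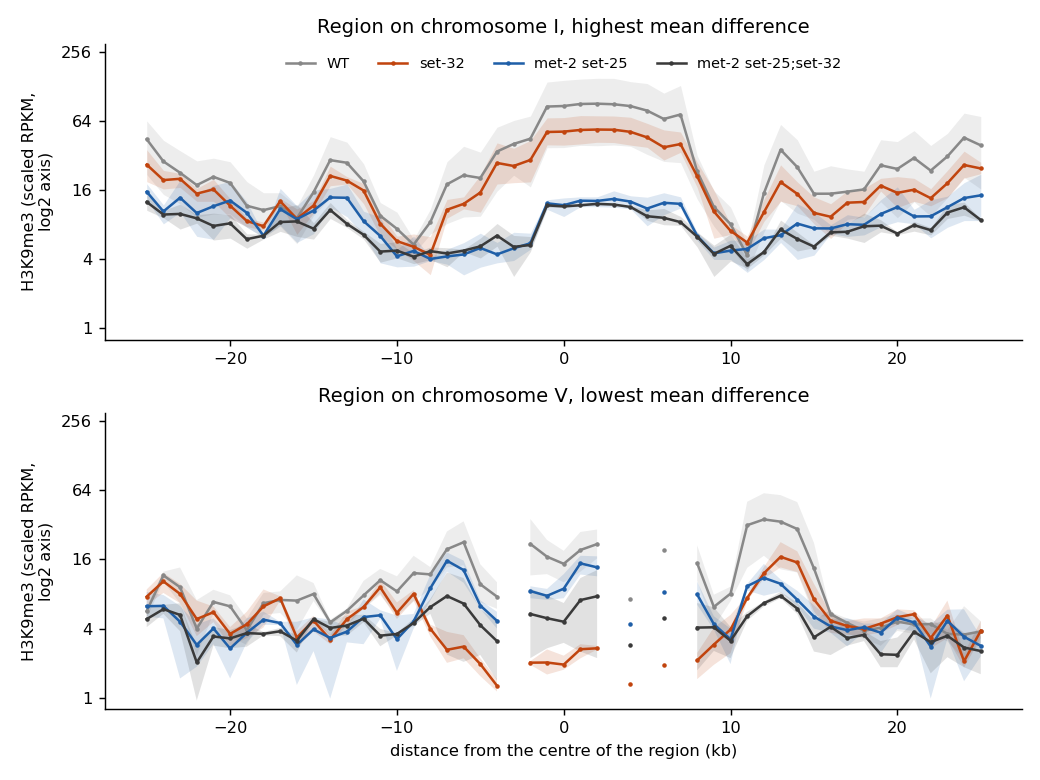
H3K9me3 in scaled RPKM (log2 axis) in 1 kb windows around the centre of the region on chromosome I with the highest mean difference (top) and that on chromosome V with the lowest (bottom). Lines are means of the 3 feedings, shading spans the lowest and highest feeding, and gaps are windows marked as misannotated. Within the upper region set-32 runs between WT and the other mutants, and in the lower region set-32 is below met-2 set-25, as it also is, in the means, in the window next to the region on either side.

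Long regions were found on other arms too. On chromosome IV from 2896 to 2913 kb, a region of 17 called windows of which 16 were H3K9me3(+), set-32 had 20.8, 22.8 and 29.9 and met-2 set-25 9.12, 6.69 and 8.03, against 90.7, 22.3 and 45.9 in WT. On chromosome I from 13960 to 13974 kb, with 13 called windows of which 3 were GRH, set-32 had 18.2, 19.1 and 26.9 and met-2 set-25 7.41, 5.39 and 7.06. On chromosome I from 10752 to 10761 kb, with 9 windows, the values were 14.2, 15.1 and 24.2 against 4.51, 5.07 and 4.89. In each of these regions the oma-1 RNAi library was the highest of set-32, as it was in the medians of all H3K9me3(+) windows (20.2, 22.1 and 28.0). The 2 strains did not overlap in these regions, which were chosen on this contrast.

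Short regions reached similar differences. On chromosome V from 17926 to 17930 kb set-32 had 17.1, 16.4 and 20.5 and met-2 set-25 4.63, 4.18 and 4.19, a mean log2 difference of 1.79. On chromosome III from 13618 to 13621 kb the values were 13.4, 16.0 and 20.2 against 3.59, 4.89 and 4.27. The region on chromosome I from 6350 to 6353 kb, the only one of the 15 in the middle part of its chromosome, had 22.7, 21.6 and 33.8 against 6.36, 6.46 and 10.2. In these places met-2 set-25 ran from 3.59 to 10.2 scaled RPKM, where the H3K9me3(-) median is 4.90. A region on chromosome II from 1125 to 1133 kb held no H3K9me3(+) window and had 12.5, 12.2 and 14.9 against 3.84, 4.07 and 4.06, with 21.4, 8.22 and 14.4 in WT. The other 7 regions were on chromosomes I, II and V, were 3 to 7 kb long and had mean log2 differences of 1.49 to 1.68.

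**Figure D5:**
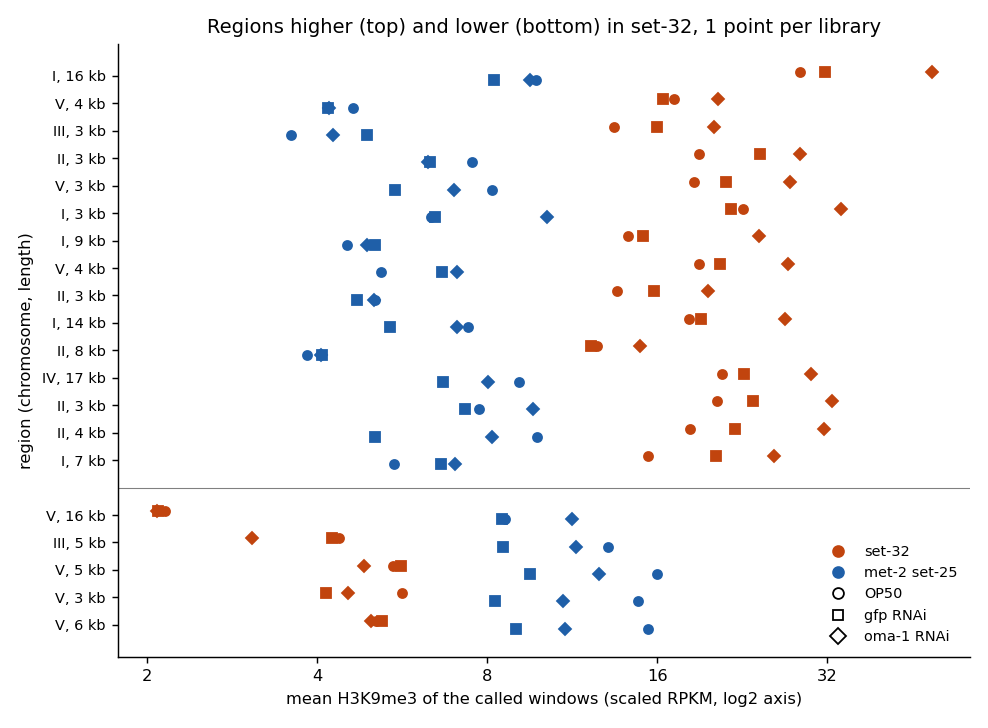
Mean H3K9me3 in scaled RPKM (log2 axis) over the called windows of the 15 regions higher in set-32 with the largest difference (above the line) and the 5 regions lower in set-32 (below the line), labelled by chromosome and length in kb, with 1 point per library. The set-32 and met-2 set-25 points do not overlap in any of the 20 regions, which were chosen on this contrast.

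GRH and GRTS windows were also joined to runs of at least 3 windows, which gave 29 GRH and 18 GRTS runs. The GRTS runs went mostly 1 way, with 15 of 18 above 0 in all 3 feedings and none below 0 in all 3. The GRH runs went both ways, with 9 of 29 above 0 and 6 below 0 in all 3 feedings. Runs of similar sequence can share reads, so not all runs are separate observations. The GRTS runs on chromosome V at 8826 to 8837 and 8868 to 8879 kb had nearly equal values in every library. By window, the fitted difference was above 0 at 90.4% of GRTS windows not GRH and 58.4% of GRH windows not GRTS. It was above 0 at 99.4% of H3K9me3(+) windows outside both lists and at 57.6% of all windows, so the GRH share was near that of all windows. The run with the largest difference was GRTS, on chromosome V from 18439 to 18442 kb, with 35.0, 35.5 and 51.4 scaled RPKM in set-32 and 22.3, 11.4 and 18.8 in met-2 set-25 (mean log2 difference 1.19, 1 of 3 windows called). It was followed by 2 GRH runs, on chromosome I from 13960 to 13963 kb (1.15, all 3 windows called) and on chromosome III from 3452 to 3456 kb (1.03, 2 of 4 windows called), and by 2 GRTS runs, on chromosome I from 226 to 233 kb (0.94) and on chromosome V from 20296 to 20299 kb (0.93, no window called).

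The 5 runs at the other end were all GRH. The GRH run on chromosome IV from 8395 to 8400 kb had 4.93, 5.85 and 6.16 in set-32 and 15, 7.48 and 11.4 in met-2 set-25, with 37.6, 10.4 and 21.9 in WT and 6.90, 6.11 and 5.95 in the triple mutant. Its mean log2 difference was -0.88 and 2 of its 5 windows were called lower in set-32. On chromosome IV from 10354 to 10357 kb set-32 had 8.35, 9.13 and 7.23 and met-2 set-25 17.6, 10.0 and 14.4 (mean log2 difference -0.68, no window called). The runs on chromosome V from 12690 to 12697 kb, on chromosome IV from 13428 to 13431 kb and on chromosome V from 15588 to 15595 kb had -0.61, -0.43 and -0.35, with 1 called window among them. In all 5 runs met-2 set-25 was above both set-32 and the triple mutant in every feeding.

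The GRH windows differed in Pol II as well. Pol II was measured as ChIP-seq of Pol II phosphorylated at serine 2 of its C-terminal repeat, a form found on elongating polymerase, with gfp RNAi and oma-1 RNAi and no OP50 library (n = 2 for each strain). The column names of the set-32 and triple mutant Pol II libraries share a prefix, and those of met-2 set-25 and WT another. In Pol II too, the strain difference and whatever the prefix stands for cannot be told apart. Over all windows 832 were higher in set-32 than in met-2 set-25 (0.834%) and 2313 were lower (2.32%). Of the 190 windows that were GRH and not GRTS, 48 were higher in set-32 (25.3%) and none was lower, with a median log2 difference of 0.46 against -0.19 over all windows. Their median Pol II was 16.7 RPKM in set-32 with gfp RNAi and 15.9 with oma-1 RNAi, and 10.2 and 8.64 in met-2 set-25, with 13.0 and 13.6 in WT. Of the 166 windows that were GRTS and not GRH, 3 were higher and 3 lower. Scaling to the median of all windows turned the balance over all windows, to 1875 higher and 1251 lower.

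All 6 GRH runs with lower H3K9me3 in set-32 in every feeding had more Pol II in set-32, with mean log2 differences of 0.48 to 2.36 in Pol II and at least 1 window called higher in each. On chromosome IV from 8395 to 8400 kb Pol II was at 48.7 and 50.9 RPKM in set-32 and at 8.81 and 6.94 in met-2 set-25 (gfp RNAi, oma-1 RNAi), with 17.7 and 17.7 in WT and 25.3 and 32.4 in the triple mutant, and all 5 windows were called higher in set-32. On chromosome IV from 10354 to 10357 kb it was at 48.9 and 48.1 against 8.46 and 7.79, with 22.5 and 21.8 in WT. In both runs met-2 set-25 was the lowest of these 4 strains in Pol II and set-32 the highest. On chromosome V from 15588 to 15595 kb Pol II was at 26.9 and 27.3 against 14.0 and 13.3, and 4 windows were called higher. More Pol II in set-32 was found at other GRH runs as well. Of the 9 runs with higher H3K9me3 in every feeding 4 had a Pol II log2 difference above 0 (range -0.83 to 1.04), and of the 14 runs without 1 sign in all feedings 10 did (-0.08 to 1.56). The run on chromosome I from 4457 to 4470 kb had log2 differences of 0.50 in H3K9me3 and 0.84 in Pol II, with 5 windows called higher in Pol II, whereas that from 13960 to 13963 kb had 1.15 in H3K9me3 and -0.36 in Pol II, with no window called in Pol II. The 48 GRH windows with higher Pol II had a median H3K9me3 log2 difference of -0.14, and the other 142 of 0.25.

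Few of the windows with higher H3K9me3 in set-32 were called in Pol II, as over all windows. Calls of higher Pol II were more frequent among them than over all windows. Of the 1166 windows, 27 were higher in Pol II (2.32%, against 0.834% of all windows) and 22 lower (1.89%, against 2.32% of all windows), with a median log2 difference of -0.05 in Pol II, against -0.19 over all windows. Their median Pol II level was 12.1 and 11.7 RPKM in set-32 (gfp RNAi, oma-1 RNAi), 11.8 and 12.4 in met-2 set-25 and 11.6 and 13.1 in WT. In the 15 regions 5 of the 99 windows were called, all lower in set-32. With 2 libraries a strain, differences in Pol II smaller than the call limit may have gone undetected at this depth.

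The windows with lower H3K9me3 in set-32 were few and stood in a few places. Lower windows that lay within 50 kb of each other, at least 5 together, marked 3 places that held 52 of the 85, and outside them 33 of 99503 windows (0.0332%) were lower. Of the 85 windows 41 were H3K9me3(-) in WT, against 22219 of all 99742 windows. Only 1 of the 85 was H3K9me3(+), against 5.04% of all windows. GRH windows made up 4 of the 85, and 2.11% of the windows GRH and not GRTS were lower, against 0.0852% of all windows. Their median level was 4.47, 4.65 and 4.19 scaled RPKM in set-32. The met-2 set-25 medians were 14.2, 8.79 and 11.9, with 7.89, 4.75 and 5.96 in WT. At the median of these windows met-2 set-25 was thus above WT in every feeding. In Pol II 17 of the 85 were higher in set-32 (20%, against 0.834% of all windows) and 9 lower (10.6%, against 2.32%).

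The widest place was on chromosome V from 2354 to 2560 kb, with 32 lower windows and 3 of the 5 lower regions (2399 to 2402, 2408 to 2413 and 2508 to 2514 kb). Over its 206 windows H3K9me3 was at 6.37, 6.77 and 6.72 scaled RPKM in set-32 and 15.1, 9.44 and 12.5 in met-2 set-25, with 8.56, 4.19 and 6.21 in WT and 9.39, 8.12 and 6.55 in the triple mutant. The 206 kb on either side had mean log2 differences of 0.11 and 0.15, against -0.80 inside. Pol II was higher there in met-2 set-25 too, at 6.57 and 5.01 RPKM (gfp RNAi, oma-1 RNAi) against 2.71 and 2.55 in set-32 and 2.55 and 2.41 in WT. The triple mutant had 6.43 and 5.83. Both strains with the met-2 and set-25 alleles were therefore higher than set-32 and WT in Pol II across this stretch. Whether the number of copies of this DNA differed between the strains was not tested.

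The region with the largest fall was on chromosome V from 18048 to 18064 kb, with 12 called windows and 4 marked as misannotated. H3K9me3 was at 2.15, 2.09 and 2.08 scaled RPKM in set-32 and at 8.59, 8.50 and 11.3 in met-2 set-25, with 23.7, 11.1 and 14.0 in WT (mean log2 difference -1.67, largest adjusted p 0.0017 in limma). In the triple mutant it was at 2.10 on OP50, 8.37 with gfp RNAi and 5.29 with oma-1 RNAi. The 4 low libraries, all of set-32 and the triple mutant on OP50, are those whose column names share the prefix of the set-32 H3K9me3 libraries. The part of that prefix in this fall and that of the strain cannot be told apart. The flanks of 16 kb had mean log2 differences of 0.35 and 0.14. Pol II in the region was at 7.95 and 7.69 RPKM in set-32 and 8.92 and 7.72 in met-2 set-25, with no window called.

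On chromosome III from 6542 to 6563 kb 8 windows were lower in set-32, 4 of them in a region from 6558 to 6563 kb. In that region H3K9me3 was at 4.37, 4.25 and 3.06 scaled RPKM in set-32 and 13.1, 8.52 and 11.5 in met-2 set-25, with 7.21, 4.95 and 7.58 in WT. Pol II went the opposite way, at 22.0 and 20.6 RPKM in set-32 and 7.38 and 6.01 in met-2 set-25, with 15.3 and 17.8 in WT and 9.47 and 5.55 in the triple mutant, and all 4 windows were called higher in set-32. In the 21 kb to the right the mean log2 difference was 1.11 in Pol II and 0.00 in H3K9me3, and in the 21 kb to the left it was -0.49 and -0.08.

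Single windows outside the regions are named here for their values. At 15907 kb of chromosome IV, the lowest window of the comparison (log2 difference -2.89, SE 0.30), H3K9me3 was at most 0.486 scaled RPKM in every set-32 and triple mutant library, and Pol II at most 0.15 RPKM, while met-2 set-25 had 10.3, 5.61 and 8.62 scaled RPKM of H3K9me3. At 86 kb of chromosome X (-2.23) set-32 had 2.04, 1.71 and 1.4 and met-2 set-25 14.9, 11.6 and 9.20, with 17.7, 1.94 and 2.32 in WT, so the WT libraries themselves were apart.

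At oma-1, the gene targeted by oma-1 RNAi, the strains were compared in each feeding. The double-stranded RNA was made from an oma-1 insert (chromosome IV, 8889833 to 8890353, ce6) that carries single mismatches to the gene. Its first 150 bases are shown because they start in the one of its windows with more H3K9me3 in oma-1 RNAi animals; capitals mark the mismatches.
oma-1 trigger: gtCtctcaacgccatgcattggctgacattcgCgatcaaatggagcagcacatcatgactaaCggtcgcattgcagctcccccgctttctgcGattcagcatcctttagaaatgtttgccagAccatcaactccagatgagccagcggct

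The insert lies in the windows at 8889 and 8890 kb. With oma-1 RNAi the window at 8889 kb was at 21.7 (set-32) and 22.4 (met-2 set-25) scaled RPKM, with 34.3 in WT and 7.75 in the triple mutant. The window at 8890 kb was at 10.2 (set-32) and 14.4 (met-2 set-25), with 24.8 in WT and 7.34 in the triple mutant. On OP50 and gfp RNAi all 4 strains had 5.04 to 9.30 in these windows. Both mutants thus lay between WT and the triple mutant with oma-1 RNAi.

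The difference between the mutants at oma-1 was not called in the fit over all windows (log2 difference -0.07, adjusted p 0.991, and -0.28, adjusted p 0.824, in limma). That fit averages the strain difference over the feedings, and H3K9me3 was raised here with oma-1 RNAi alone. It therefore cannot decide whether the response to oma-1 RNAi differed between the mutants. In RPKM the ratio of set-32 to met-2 set-25 over both windows was 0.733 with oma-1 RNAi (95% exact binomial interval 0.560 to 0.954, 91 and 158 reads), 0.822 with gfp RNAi (0.572 to 1.18, 59 and 70 reads) and 0.844 on OP50 (0.553 to 1.31, 65 and 36 reads). With the scaling to the H3K9me3(-) median the ratios were 0.865 (0.661 to 1.13), 1.14 (0.791 to 1.63) and 0.717 (0.470 to 1.11). Of these intervals over both windows, the only one that left out 1 included it after scaling. With oma-1 RNAi the window at 8890 kb alone had 0.595 (0.369 to 0.939) in RPKM and 0.703 (0.436 to 1.11) after scaling. The window at 8889 kb had 0.821 (0.587 to 1.14) and 0.97 (0.694 to 1.35). The intervals cover counting error only. The 3 windows on the left had a mean log2 difference of -0.05 and those on the right of 0.10.

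Other loci were fixed for their class of windows. Over the 17 GRTS windows at 5182 to 5200 kb of chromosome V, the retrotransposon cer8, set-32 had 20.7, 23.8 and 30.4 scaled RPKM and met-2 set-25 16.6, 10.7 and 14.6 (mean log2 difference 0.68, 1 window called), with 86.9, 23.0 and 45.5 in WT. Over the 7 GRH windows at 5472 to 5479 kb of the same chromosome the strains overlapped, at 14.5, 17.8 and 21.3 against 18.4, 11.0 and 16.7 (0.21, no window called). At the control region of the ChIP-qPCR (chromosome II, 6708 to 6710 kb) set-32 had 7.28, 9.29 and 9.45 and met-2 set-25 9.55, 8.52 and 8.04, and no window was called.

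Whether the strain difference itself differed between OP50 and the RNAi feedings was fitted with an interaction term chosen after seeing the data. OP50 had 1 library per strain, so the term compares single libraries with the RNAi feedings and cannot tell the feeding from the library. The difference was larger with RNAi food at 36 windows (0.0361%) and smaller at 53 (0.0531%). None of these 89 was H3K9me3(+), against 5.04% of all windows. None was GRH or GRTS, but those lists hold only 215 and 191 windows, so a count of none says little for them. At an unadjusted p under 0.05 there were 15155 windows. The median interaction was 0.49 over all windows and 0.73 over the H3K9me3(+) windows, on the log2 scale.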

How the data were processed

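ChIP-seq reads were aligned by the authors with Bowtie 0.12.7 to ce6 (WS190) with perfect matches only, a read with N matches counted as 1/N, and deposited as RPKM in 1 kb windows; RPKM is not a count, and 81.1% to 85.9% of low values were whole numbers of reads (within 0.02 beyond rounding), so no count test was run. Columns were matched to samples through the study's list of libraries. Windows marked misannotated (506) or under a mean of 3 RPKM (22) were left out. Log2(RPKM + 1) values, with Pol II at depth normalization only, were fitted with limma 3.58.1 (R 4.3.3; trend, 5 strains, feeding as a block), and calls needed a Benjamini-Hochberg adjusted p under 0.05 and 2-fold. Fold changes on this scale understate low windows. Single values per library went into exact permutation tests (two-sided, scipy 1.17.1). The fit was tested on simulated data.

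Named regions were called windows joined over gaps of at most 1 kb, with at least 3 windows and the same sign in every feeding, the 15 with the largest mean difference in each direction; the 5 runs at each end of the GRH and GRTS runs; and fixed loci. Regions and lists were chosen with earlier results of these data known. The authors' columns that mark windows as dependent on each HMT hold their own comparison and were not used. Input libraries were not analysed here, so DNA copy number and mappability were not corrected. Whether feedings came from separate cultures is not given in the sources used here.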

Additional observations from a re-analysis of the deposited data

Results flagged for a closer look

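At 89 windows the strain difference in H3K9me3 on OP50 was apart from that with RNAi food, by an interaction term in limma across all windows (adjusted p under 0.05, at least 2-fold). At 36 windows it was larger with RNAi food than on OP50, with median log2 differences of -1.38 on OP50, 0.66 with gfp RNAi and 0.59 with oma-1 RNAi; 15 of the 36 were on chromosome X. At 53 windows it was smaller with RNAi food, with medians of 1.96, -0.34 and -0.35; there met-2 set-25 on OP50 had a median of 0.982 scaled RPKM and all other libraries of the 2 strains 3.67 to 5.64, and 34 of the 53 were H3K9me3(-). OP50 had 1 library per strain, so its spread was taken from the RNAi feedings, and the feeding and the library cannot be told apart; the met-2 set-25 library on OP50 was the shallowest of the 6 (2444000 reads). The cause was not tested.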

How the results depend on the processing

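Against 1166 higher and 85 lower windows, depth normalization only gave 204 lower, pseudocount 0.5 gave 146 lower, pseudocount 5 gave 301 higher and 7 lower, and the 1.5-fold limit 1826 and 248. Leaving out a feeding or a library gave 134 to 4311 higher and 15 to 229 lower windows. Without the 3 places that hold most lower windows, an alternative chosen after seeing the data, 33 lower windows were left. The other settings kept both counts within 1.5 times. Fitted without the replicate block (feeding), 880 were higher and 85 lower; the replicate numbers stand for feedings, and the main fit has the block. Pol II calls moved to 1875 higher and 1251 lower with scaling to the median of all windows. With depth normalization only the median log2 difference was -0.15 in the H3K9me3(-) windows and -0.16 in the class lowest in WT; all other class medians moved by less than the spread between feedings. The H3K9me3(+) to H3K9me3(-) ratio kept its direction in all 8 alternatives. In 53 of 320 refits of a region fewer than 3 of its windows stayed called. Each setting refitted the same 20 regions. The largest losses were 14 of the 20 without oma-1 RNAi, 8 without met-2 set-25 on OP50 and 7 with pseudocount 5. Pol II without 1 feeding was not run, since no residual degrees of freedom remain. The median of 24 to 46.5 reads per window limits calls at low windows. The causes were not tested.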
